A study of Mus musculus with 23 samples.

Results

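The genes described here are the 10 members of the MYC, MAX and MXD network that were looked up by symbol in the deposited mouse gene tables: Myc, Mycn, Max, Mxi1, Mxd1, Mxd3, Mxd4, Mnt, Mga and Mlx. All 10 were found among 24063 listed symbols, and 9 of them passed the filter on low counts. Mycn did not pass. The 23 RNA-seq libraries were made from cells labelled CD138+B220-, the surface phenotype of plasma cells and myeloma cells. VQ-D1, VQ-D2, VQ-D4 plus VQ-D5 are 4 donor lines of genotype Vκ*MYC; NrasLSL Q61R/+; IgG1-Cre, called VQ, each with 4 libraries from recipient mice. t-VK12653 is 1 donor line that carries Vκ*MYC without the Nras allele or Cre, with 4 libraries from recipients. Control is 3 libraries from IgG1-Cre mice, all from bone marrow. Every tumour library in the comparison with Control therefore carries the MYC transgene, and a comparison of VQ with t-VK12653 sets 4 donors against 1. Libraries of a line share their donor and came from 2 recipients a line.

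VQ-D1 was sampled in bone marrow and spleen, VQ-D2 in spleen and lymph node, VQ-D5 in bone marrow and lymph node, and t-VK12653 in bone marrow and spleen, with 2 libraries from each site. VQ-D4 gave 1 library each from lymph node, spleen, liver and bone marrow. The Vκ*MYC transgene is driven by immunoglobulin kappa regulatory sequence and is switched on by somatic hypermutation in germinal-centre B cells. IgG1-Cre is active in the same cells and removes the stop cassette in front of the mutant Nras allele. Ages, sexes and the state of the recipients are not given in the labels, which also do not say whether the Control libraries came from separate mice. P-values therefore measure the spread between these libraries. Where VQ libraries are summed by line, they measure the spread between VQ donor lines together with that between Control libraries.

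MYC and its relatives are transcription factors with a basic helix-loop-helix and leucine zipper domain. They bind DNA only as pairs, and MAX is the shared partner. MYC:MAX pairs activate genes of ribosome production, metabolism and growth, whereas the MXD proteins, MXI1, MNT and MGA also pair with MAX and act mainly as repressors on the same sites. MLX is the corresponding partner in a parallel branch with MondoA and ChREBP, and it can also pair with MNT and some MXD proteins. In germinal-centre and plasma cell tumours, raised MYC is among the best known oncogenic changes, and Vκ*MYC mice are used as a model of multiple myeloma for that reason.

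The sequence that these pairs recognise is the E-box CACGTG, which reads the same on both strands. It was searched in the RefSeq promoter windows of the members on GRCm38.p6, each 300 bases long and reaching from 250 bases before to 50 bases after a start site. Windows were given for 9 members, 3 for Mxi1 and 1 for each of the others. The motif was found in the windows of Max, Mxd4, Mnt and Mlx, 4 of those 9 members. Counted by window and not by gene, 7.15% of all 32851 windows held it, and a share by gene was not computed. The 4 matches are shown with 12 bases on either side, on the strand of the gene, with the E-box in capitals.
Max, chr12:76962234-76962263, minus strand: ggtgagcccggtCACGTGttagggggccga
Mxd4, chr5:34187912-34187941, minus strand: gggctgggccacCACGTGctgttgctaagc
Mnt, chr11:74830789-74830818, plus strand: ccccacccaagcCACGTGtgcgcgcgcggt
Mlx, chr11:101087238-101087267, plus strand: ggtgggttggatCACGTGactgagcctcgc
The first base of the motif lies at -3 in Max, -219 in Mxd4, -123 in Mnt and -40 in Mlx, counted from the start site. The RNA of these 4 genes did not move together: as described below, Mlx was lower than in Control in all 5 lines, Mnt was higher in 2 of them, and Max and Mxd4 were each lower in 2. A match of letters describes the sequence and says nothing of binding in these cells.

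Each library held between 2685579 and 10047314 assigned reads, of which the 45S ribosomal RNA gene Rn45s took 16.4% to 27.3%. Levels are given as CPM, read counts scaled to the size of each library and by TMM, as mean ± SD of 4 libraries in a line and of 3 in Control. The plasma cell regulator Irf4 was at 1021 CPM or more in every tumour library, against 1615, 854 and 1282 CPM in Control. Sdc1, which encodes CD138, was at 251 CPM or more in every tumour library and at 925, 625 and 894 CPM in Control. Markers of other bone marrow cells were present as well. The summed neutrophil, erythroid and T and NK cell markers were higher in every Control library than in any tumour library, whereas the B cell and the monocyte and macrophage sums overlapped. The sum of 16 neutrophil markers was 5.59 to 1194 CPM in the 20 tumour libraries, highest in VQ-D1 replicate 1, against 3244, 9074 and 3670.1 CPM in Control replicates 1, 2 and 3. The sum of 13 plasma cell markers was 5136 to 16339 CPM in the tumour libraries and 35541 to 66005 CPM in Control. Of these 13, 2 were higher and 9 lower than in Control (adjusted p under 0.05) in VQ-D1, and 1 and 11 in VQ-D2. In VQ-D4 the counts were 2 and 6, and in VQ-D5 and t-VK12653 they were 1 and 9. Over all tested genes, 27.5% to 31.2% were higher and 26.9% to 32.5% lower in these comparisons. The sum of 15 erythroid markers was 2.62 to 91.8 CPM in the tumour libraries and 189.6 to 1125 CPM in Control. For 16 T and NK cell markers it was 2.03 to 59.8 CPM in the tumour libraries, against 89.2 to 150.9 CPM in Control. The sum of 11 B cell markers was 73.0 to 5581 CPM in the tumour libraries and 3540.4 to 4457 CPM in Control. In t-VK12653 and Control most of it was Cd74, the invariant chain gene, at 4584 ± 844 CPM in t-VK12653 and 3241 ± 612 CPM in Control. The sum of 15 monocyte and macrophage markers was 6.15 to 1409 CPM in the tumour libraries, against 516 to 1680.3 CPM in Control. Of the 13 that were tested, 1 was higher and 11 lower than in Control in t-VK12653, and 1 and 10 in VQ-D4. In VQ-D1, VQ-D2 and VQ-D5 none was higher and 10, 10 and 13 were lower. Of the 11 B cell markers, none was higher and 8 to 11 were lower in each line. The overlap of these 2 sums with Control was thus not shared by most of their genes. The part of these cells in the values of the members was not tested.

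Myc (chr15:61985341-61990361, plus strand, GRCm38.p6) was higher in every tumour line than in Control, and its line means spanned 11.1-fold between t-VK12653 and VQ-D1. It stood at 693, 609, 523 and 539.8 CPM in VQ-D1 and at 3489.7, 3519, 3381 and 3501 CPM in VQ-D2. VQ-D4 libraries held 1261, 1245, 1677 and 1309 CPM and VQ-D5 libraries 1060.0, 1265, 1082 and 1237 CPM. The highest levels were in t-VK12653, at 6318, 6893, 6509.7 and 6413 CPM, and the lowest in Control, at 41.7, 57.8 and 29.4 CPM. No tumour library came near the Control range. On the log2 scale the difference from Control, by edgeR's quasi-likelihood test with Benjamini-Hochberg adjustment over all tested genes as for every adjusted p here, was 3.76 ± 0.18 (SE, adjusted p = 7.31e-13) in VQ-D1 and 6.32 ± 0.21 (SE, adjusted p = 3.35e-15) in VQ-D2. It was 5.03 ± 0.19 (SE, adjusted p = 4.12e-14) in VQ-D4 and 4.77 ± 0.19 (SE, adjusted p = 1.45e-14) in VQ-D5, and 7.22 ± 0.21 (SE, adjusted p = 1.38e-16) in t-VK12653. In linear terms Myc RNA was 13.5-fold higher in VQ-D1 than in Control and 149-fold higher in t-VK12653. VQ-D2 had no bone marrow library and Control had only bone marrow. Each tested difference of VQ-D2 from Control, for Myc and the other members, therefore rests on organ terms estimated with other lines. Line and organ cannot be told apart there without taking those terms as shared.

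With the 4 libraries of each VQ line summed to 1 value per donor, Myc stood at 606, 3823, 1385 and 1249.6 CPM in lines VQ-D1, VQ-D2, VQ-D4 plus VQ-D5, against 40.0, 57.0 and 28.4 CPM in Control. The log2 difference was 5.40 ± 0.75 (SE, adjusted p = 0.00556), and it leaned on VQ-D2: without that line it was 4.62 (adjusted p = 0.00633). From bone marrow libraries alone, which leaves VQ-D2 out because it has none, it was 4.57 (adjusted p = 0.00641). How reads from the transgene were handled when the authors counted the Myc gene was not given in the sources used here, so RNA of the transgene and of the endogenous locus cannot be told apart in these values. In such bulk libraries, fewer cells of a type and less RNA per cell cannot be told apart either.

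**Figure D1:**
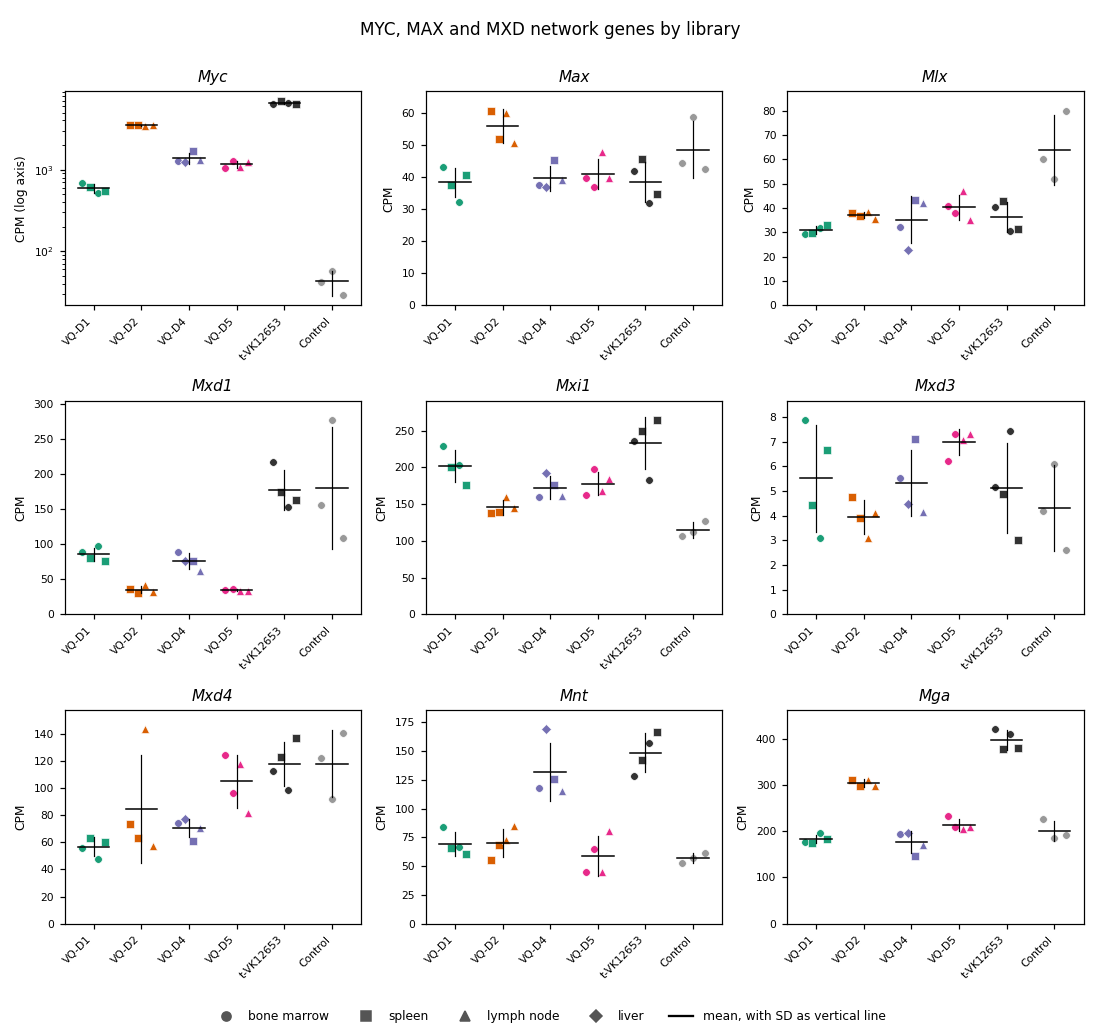
Level of each of the 9 tested network genes in every library, in CPM after TMM scaling (log axis for Myc, linear axes from 0 for the others), by group, with marker shape giving the organ. Horizontal bars are means and vertical lines SD (n = 4 libraries for each line, 3 for Control); Myc lies between 523 and 6893 CPM in all 20 tumour libraries and at 57.8 CPM or below in Control, while Mlx lies below the Control range in all 20.

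Among the lines, Myc ran from t-VK12653 through VQ-D2, VQ-D4 and VQ-D5 down to VQ-D1, and 9 of the 10 pairs of lines passed the test. The pair that did not was VQ-D4 and VQ-D5, whose log2 difference was 0.26 with a 95% interval of -0.03 to 0.55; without Control replicate 2 it passed, at 0.28 (adjusted p = 0.0499). VQ-D2, the highest VQ line, was below t-VK12653 with a log2 difference of -0.90 ± 0.15 (SE, adjusted p = 1.93e-05). The mean of the 4 VQ lines was below t-VK12653 with a log2 difference of -2.25 ± 0.11 (SE, adjusted p = 1.81e-13). Over all genes and the 10 pairs of lines together, 53.5% of tests passed, and over the 9 members 45 of 90 did, with counts of 40 to 46 when 1 library was left out at a time.

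Mycn (chr12:12936093-12941836), the paralogue used mainly in neural and embryonic tissue, was close to absent. VQ-D5 replicate 4 held 3 reads and t-VK12653 replicate 1 held 1 read, and the other 18 tumour libraries held none. The Control libraries held 0, 3 and 1 reads. Pooled over libraries, the VQ level was 0.0765 times the Control level, with an exact 95% interval of 0.0112 to 0.452 that covers counting error only. For t-VK12653 the ratio was 0.148, with an interval of 0.00301 to 1.5 that includes 1. Of the Control reads, 3 came from Control replicate 2 alone. Mycl, a further paralogue outside the 10 members, was at 3.51 ± 1.63 CPM in t-VK12653 and at 0.699 ± 0.324 CPM in Control, and it was -3.47 ± 0.59 (SE, adjusted p = 2.83e-05) on the log2 scale in VQ against t-VK12653.

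Pvt1, the long non-coding RNA gene next to Myc, followed another order. VQ-D1 libraries held 32, 44, 95 and 61 Pvt1 reads, VQ-D2 45, 10, 24 and 21, VQ-D4 76, 101, 35 and 30 and VQ-D5 9, 15, 37 and 31. The t-VK12653 libraries held 1, 2, 0 and 0 reads and the Control libraries 10, 7 and 12 reads. The line with the most Myc RNA thus had the least Pvt1 RNA, 3 reads in 4 libraries. Pooled Pvt1 was 38.1 times as high in VQ as in t-VK12653, with an exact 95% interval of 13 to 185 for counting error, and the t-VK12653 level was 0.0614 times the Control level (0.0120 to 0.198). The edgeR test gave 4.82 ± 0.56 (SE, adjusted p = 1.39e-07) for VQ against t-VK12653.

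Max (chr12:76937269-76962323), the partner that MYC needs to bind DNA, changed little next to Myc. Its mean was 38.4 ± 4.61 CPM in VQ-D1 and 55.9 ± 5.31 in VQ-D2, with 39.8 ± 3.87 in VQ-D4 and 41.2 ± 4.69 in VQ-D5, and 38.5 ± 6.33 in t-VK12653, against 48.6 ± 8.85 CPM in Control. The tumour libraries ranged from 31.8 to 60.8 CPM and overlapped the Control libraries, at 42.5 to 58.8 CPM. Max was lower than in Control in VQ-D1, with a log2 difference of -0.42 ± 0.15 (SE, adjusted p = 0.0246), and in t-VK12653, with -0.40 ± 0.16 (SE, adjusted p = 0.0363). Both calls depended on single libraries: without Control replicate 2, the highest, they became -0.28 (adjusted p = 0.149) and -0.27 (adjusted p = 0.188). Both were also lost with recipients summed or with no filter on low counts, and that in VQ-D1 also without VQ-D1 replicate 3, at -0.33 (adjusted p = 0.112). The call in t-VK12653 was lost without t-VK12653 replicate 3, at -0.31 (adjusted p = 0.144), without t-VK12653 replicate 4, at -0.34 (adjusted p = 0.0814), and without VQ-D1 replicate 3, at -0.37 (adjusted p = 0.0501). VQ-D2 had the highest Max of the 5 lines and was above VQ-D4 by 0.42 ± 0.15 (SE, adjusted p = 0.0197), above VQ-D5 by 0.37 ± 0.14 (SE, adjusted p = 0.0392) and above t-VK12653 by 0.47 ± 0.15 (SE, adjusted p = 0.00784) on the log2 scale, while VQ-D1 against VQ-D2 was -0.49 ± 0.14 (SE, adjusted p = 0.00681). The difference from VQ-D4 was lost without VQ-D2 replicate 1, at 0.36 (adjusted p = 0.071), VQ-D2 replicate 3, at 0.36 (adjusted p = 0.0656), VQ-D4 replicate 1, at 0.39 (adjusted p = 0.0635), and VQ-D4 replicate 4, at 0.36 (adjusted p = 0.101). That from VQ-D5 was lost in 7 of the 23 fits that left out 1 library, with VQ-D2 replicates 1 and 3, VQ-D5 replicates 1, 2 and 4, VQ-D1 replicate 2 or t-VK12653 replicate 1 left out, and it was lowest without VQ-D2 replicate 3, at 0.32 (adjusted p = 0.136). It was also lost with recipients summed, at 0.42 (adjusted p = 0.127), and with no filter, at 0.38 (adjusted p = 0.063).

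Mlx (chr11:101086707-101092207), the partner of the parallel branch, was lower in every tumour library than in any Control library. Mlx stood at 29.3, 29.6, 31.9 and 32.9 CPM in VQ-D1 and 37.9, 36.9, 38.4 and 35.3 in VQ-D2, and at 32.2, 22.9, 43.4 and 42.2 in VQ-D4. It stood at 40.7, 38.1, 47.1 and 35.2 CPM in VQ-D5 and 40.4, 42.8, 30.5 and 31.5 in t-VK12653, against 60.2, 52.0 and 80.0 CPM in Control. The log2 difference from Control was -1.11 ± 0.16 (SE, adjusted p = 4.74e-06) in VQ-D1 and -0.91 ± 0.18 (SE, adjusted p = 0.000232) in VQ-D2, and -0.81 ± 0.18 (SE, adjusted p = 0.000639) in VQ-D4. It was -0.74 ± 0.17 (SE, adjusted p = 0.00054) in VQ-D5 and -0.87 ± 0.16 (SE, adjusted p = 0.000102) in t-VK12653. Of the 10 pairs of lines 1 passed, VQ-D1 against VQ-D5 at -0.37 ± 0.16 (SE, adjusted p = 0.0448), and the mean of VQ against t-VK12653 was -0.02 with a 95% interval of -0.26 to 0.22. Mlx shares 385 exon bases with Psmc3ip on the opposite strand in GENCODE M21, and Psmc3ip was at 26.9 ± 0.522 CPM in VQ-D1, 9.84 ± 3.96 in VQ-D4 and 21.9 ± 2.63 in t-VK12653, against 7.63 ± 3.40 CPM in Control. The library kit marks strand, but the strand setting used for counting was not given in the sources used here, so the part of that overlap in the Mlx values was not tested. The same holds for 3 other members with an opposite-strand overlap: Mxi1 shares 194 exon bases with Gm10197, Mxd4 shares 514 with Gm42846 and Mxd3 shares 105 with Prelid1. Prelid1 was at 117 ± 2.13 CPM in VQ-D1, 147 ± 20.9 in VQ-D5 and 128 ± 3.95 in t-VK12653, against 74.2 ± 8.80 CPM in Control.

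Other genes of the MLX branch moved unevenly. Mlxip, which encodes MondoA, was at 91.7 ± 7.77 CPM in VQ-D1 and 234 ± 64.7 in VQ-D2, with 127 ± 24.5 in VQ-D4 and 312 ± 25.7 in VQ-D5. It was at 438 ± 35.4 CPM in t-VK12653 and 165 ± 25.3 CPM in Control, a log2 difference of 1.38 ± 0.17 (SE, adjusted p = 8.08e-07) in t-VK12653 and of -1.41 ± 0.12 (SE, adjusted p = 1.43e-09) in VQ against t-VK12653. Arrdc4, an arrestin-like gene induced by MondoA, had 0 reads in all 4 t-VK12653 libraries and 11, 17 and 9 reads in Control. With a floor of 3 reads over the group, Arrdc4 was at least 20.8-fold lower in t-VK12653 than in Control, and in VQ it was -3.40 ± 0.74 (SE, adjusted p = 0.0176). Txnip, the other well known MondoA-induced gene, was at 584, 595, 2610.3 and 1877 CPM in the 4 t-VK12653 libraries, against 421, 426 and 466 CPM in Control. It was above Control in VQ-D4 as well, at 1223, 739, 865 and 1007 CPM, while the libraries of VQ-D1, VQ-D2 and VQ-D5 overlapped Control. The 2 low and the 2 high t-VK12653 libraries each comprised 1 from bone marrow and 1 from spleen.

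Mxd1 (chr6:86647044-86669234), an MXD repressor whose RNA rises as myeloid cells mature, fell into 3 levels. In VQ-D2 it stood at 36.8, 30.9, 41.3 and 31.9 CPM and in VQ-D5 at 34.2, 36.2, 34.0 and 33.5 CPM. In VQ-D1 it stood at 88.9, 80.1, 96.9 and 75.9 CPM and in VQ-D4 at 89.4, 75.7, 76.5 and 62.0 CPM. t-VK12653 libraries held 218, 174, 153 and 163 CPM and Control libraries 156, 277 and 108 CPM. No VQ library overlapped a Control or a t-VK12653 library. Mxd1 fell in each VQ line relative to Control, with a log2 difference of -0.98 ± 0.22 (SE, adjusted p = 0.00102) in VQ-D1 and -2.16 ± 0.26 (SE, adjusted p = 1.4e-06) in VQ-D2, with -1.12 ± 0.25 (SE, adjusted p = 0.000883) in VQ-D4 and -2.28 ± 0.24 (SE, adjusted p = 1.7e-07) in VQ-D5. In t-VK12653 the difference was 0.08 ± 0.22 (SE, adjusted p = 0.789). Between lines, 8 of 10 pairs passed, and the pairs that did not were VQ-D1 with VQ-D4, at 0.14 with a 95% interval of -0.29 to 0.57, and VQ-D2 with VQ-D5, at 0.13 with -0.31 to 0.56.

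The Mxd1 level of Control is uncertain. It was highest in Control replicate 2, which also had the highest sum of neutrophil markers. Among the Control libraries, that one was also highest in the erythroid, T and NK cell, monocyte and macrophage, and proliferation sums. Its plasma cell sum was the lowest of the Control libraries. The part of RNA from other cells in the Mxd1 level was not tested. Without Control replicate 2, Mxd1 was 0.50 (adjusted p = 0.0123) in t-VK12653 against Control. The differences in VQ-D1 and VQ-D4 then shrank to -0.55 (adjusted p = 0.00528) and -0.69 (adjusted p = 0.00184), and both still passed. Differences between tumour lines compare no Control library, although the spread in that fit is estimated from all 23 libraries, and there the VQ mean was -1.71 ± 0.16 (SE, adjusted p = 2.57e-08) against t-VK12653. With lines summed, Mxd1 was -1.49 ± 0.45 (SE, adjusted p = 0.0511) in VQ against Control, just above the threshold of 0.05 and so not passed. It did pass without VQ-D1 replicate 3, at -1.54 (adjusted p = 0.0435), without VQ-D4 replicate 1, at -1.55 (adjusted p = 0.0442), without line VQ-D1, at -1.76 (adjusted p = 0.0433), and with DESeq2, at -1.61 (adjusted p = 0.00714).

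Mxi1 (chr19:53310128-53373293), the MAX-binding repressor also called MXD2, was higher in the tumour lines. Its level was 229.6, 200.1, 203 and 176 CPM in VQ-D1 and 138, 139.8, 160.2 and 145 in VQ-D2, and 159.6, 192, 177 and 162 in VQ-D4. It stood at 163, 197, 168 and 184 CPM in VQ-D5 and 236, 249.8, 183 and 264 in t-VK12653, against 106, 112 and 126 CPM in Control. Every tumour library was above every Control library. Mxi1 rose in VQ-D1 by 0.80 ± 0.13 (SE, adjusted p = 1.19e-05) on the log2 scale, in VQ-D4 by 0.51 ± 0.14 (SE, adjusted p = 0.00343), in VQ-D5 by 0.61 ± 0.13 (SE, adjusted p = 0.000281) and in t-VK12653 by 1.01 ± 0.13 (SE, adjusted p = 8.06e-07). In VQ-D2 it was 0.31 ± 0.14 (SE, adjusted p = 0.0703), and it passed without Control replicate 3, at 0.43 (adjusted p = 0.0275), without t-VK12653 replicate 3, at 0.41 (adjusted p = 0.00889), and without t-VK12653 replicate 4, at 0.38 (adjusted p = 0.0261). It also passed in 4 of the alternatives that keep every library. Ordered by mean, no 2 neighbouring groups passed the test, although the libraries of VQ-D2 and Control, the 2 lowest groups, did not overlap. VQ-D2, the lowest line, and t-VK12653, the highest, did pass, at -0.70 ± 0.12 (SE, adjusted p = 2.48e-05) for VQ-D2 against t-VK12653. VQ-D1 against t-VK12653, neighbours in that order, passed without t-VK12653 replicate 3, at -0.30 (adjusted p = 0.0183), and without VQ-D1 replicate 1, at -0.28 (adjusted p = 0.0419).

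Mxd4 (chr5:34176580-34187710), the MXD gene with the most RNA per length in Control, was lower in 2 lines. Libraries held 56.2, 63.2, 47.5 and 60.3 CPM in VQ-D1 and 73.3, 63.3, 143 and 57.5 in VQ-D2, and 74.1, 76.9, 60.9 and 70.3 in VQ-D4. Mxd4 stood at 125, 96.5, 118 and 81.7 CPM in VQ-D5 and 112, 123, 98.2 and 137 in t-VK12653, against 122, 91.7 and 140.3 CPM in Control. VQ-D2 replicate 3 was slightly above the highest Control library, while its 3 companions were below all of Control. Mxd4 fell in VQ-D1, with a log2 difference of -1.07 ± 0.27 (SE, adjusted p = 0.00281), and in VQ-D4, with -0.85 ± 0.30 (SE, adjusted p = 0.0222). In VQ-D2 it was -0.60 ± 0.31 (SE, adjusted p = 0.106), but -1.0 (adjusted p = 0.000154) without replicate 3 of that line. The call in VQ-D4 was lost without Control replicate 1, at -0.79 (adjusted p = 0.063), Control replicate 3, at -0.67 (adjusted p = 0.105), VQ-D4 replicate 3, at -0.79 (adjusted p = 0.0584), and VQ-D4 replicate 4, at -0.81 (adjusted p = 0.0516). Between lines 3 of 10 pairs passed: VQ-D1 against VQ-D5 at -0.81 ± 0.26 (SE, adjusted p = 0.0125), VQ-D1 against t-VK12653 at -1.05 ± 0.24 (SE, adjusted p = 0.00115) and VQ-D4 against t-VK12653 at -0.83 ± 0.27 (SE, adjusted p = 0.0161). The first was lost without VQ-D5 replicate 1, at -0.61 (adjusted p = 0.0749), and the last without VQ-D4 replicate 3, at -0.75 (adjusted p = 0.0755). Without VQ-D2 replicate 3, the library that stood above Control, 3 further pairs passed: VQ-D2 against t-VK12653 at -0.87 (adjusted p = 7.98e-05), VQ-D2 against VQ-D5 at -0.81 (adjusted p = 0.000834) and VQ-D4 against VQ-D5 at -0.65 (adjusted p = 0.00124). With all libraries these were -0.58 ± 0.26 (SE, adjusted p = 0.0624), -0.34 ± 0.25 (SE, adjusted p = 0.307) and -0.59 ± 0.26 (SE, adjusted p = 0.0637).

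Mxd3 (chr13:55325170-55329900), the MXD gene linked to dividing cells, was low throughout, at 3.01 to 7.88 CPM in the tumour libraries and 2.62 to 6.12 CPM in Control. It passed in no comparison with Control and in none of the 10 pairs of lines. The widest difference was in VQ-D5, 0.83 ± 0.41 (SE, adjusted p = 0.0841), and it passed without Control replicate 2, at 1.12 (adjusted p = 0.043), and without VQ-D1 replicate 3, at 0.87 (adjusted p = 0.0496). VQ-D2 against VQ-D5 also passed without t-VK12653 replicate 4, at -0.87 (adjusted p = 0.0472), and without VQ-D1 replicate 1, at -0.90 (adjusted p = 0.0442). At 41 to 175 reads a group, Mxd3 was counted too thinly to show smaller differences.

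Mnt (chr11:74830806-74845725), a broadly expressed MAX-binding repressor, separated VQ-D4 and t-VK12653 from the other groups. It stood at 118, 169, 125 and 115 CPM in VQ-D4 and 128, 142, 157 and 167 CPM in t-VK12653. VQ-D1 libraries held 84.0, 65.5, 66.5 and 60.6 CPM, VQ-D2 libraries 55.6, 68.4, 72.3 and 84.7 CPM and VQ-D5 libraries 44.5, 64.9, 44.5 and 80.6 CPM, against 52.7, 57.4 and 61.4 CPM in Control. No library of VQ-D4 or t-VK12653 overlapped a library of the other 4 groups. Mnt rose by 1.03 ± 0.20 (SE, adjusted p = 0.000215) on the log2 scale in VQ-D4 and by 1.40 ± 0.19 (SE, adjusted p = 2.85e-06) in t-VK12653. VQ-D4 and t-VK12653 themselves were at -0.37 ± 0.17 (SE, adjusted p = 0.0859), and this pair passed without t-VK12653 replicate 1, at -0.45 (adjusted p = 0.0488), and without VQ-D5 replicate 3, at -0.39 (adjusted p = 0.0332). The 6 pairs of lines that passed each set VQ-D4 or t-VK12653 against VQ-D1, VQ-D2 or VQ-D5. The highest Mnt level was in the liver library of VQ-D4, the only liver library of the study, which has a term of its own in the fit and adds nothing to the tested difference.

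Mga (chr2:119872503-119970129), a very large protein that pairs with MAX and also anchors the PRC1.6 repressor complex, separated VQ-D2 and t-VK12653. It stood at 312, 298, 311 and 297 CPM in VQ-D2 and 421, 378, 411 and 380.2 CPM in t-VK12653. VQ-D1 libraries held 177, 175, 196 and 184 CPM, VQ-D4 libraries 194, 196, 146 and 171 CPM and VQ-D5 libraries 234, 209.5, 205 and 210.3 CPM, against 226, 185 and 193 CPM in Control. All VQ-D2 and t-VK12653 libraries were above all other libraries. Mga rose by 0.72 ± 0.11 (SE, adjusted p = 4.98e-06) on the log2 scale in VQ-D2 and by 1.05 ± 0.09 (SE, adjusted p = 4.29e-09) in t-VK12653, the 2 lines that also had the most Myc RNA. The VQ-D2 value leans on organ terms from other lines, as said for Myc. Between lines, 9 of 10 pairs passed, the exception being VQ-D1 with VQ-D4 at 0.10 with a 95% interval of -0.08 to 0.27. VQ-D5 was 0.14 ± 0.09 (SE, adjusted p = 0.19) against Control, and passed without Control replicate 1, at 0.27 (adjusted p = 0.0237). Of the pair calls near the threshold, VQ-D1 against VQ-D5 in Mga at -0.21 ± 0.09 (SE, adjusted p = 0.0476) and in Mlx, and VQ-D2 against VQ-D5 in Mxi1 at -0.30 ± 0.11 (SE, adjusted p = 0.0415), were lost in most of the fits that left out 1 library.

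**Figure D2:**
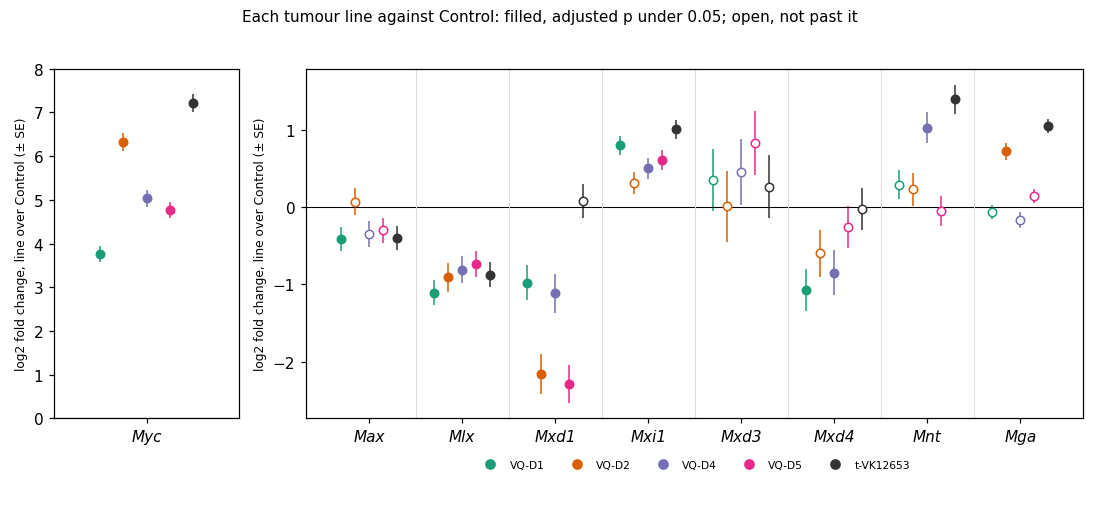
Log2 fold change of each line over Control for the 9 tested members (points, with SE as vertical lines), from 1 edgeR fit of 23 libraries; filled points have an adjusted p under 0.05 and open points do not. Myc is between 3.76 and 7.22 in the 5 lines and Mlx is below 0 in all 5, whereas Mxd1 is below 0 in the 4 VQ lines and at 0.08 in t-VK12653, and Mnt and Mga are well above 0 in 2 lines each.

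Counted over the 9 tested members, the lines differed from Control in 4 to 6 genes, on either side of the share among all genes. VQ-D1 passed in 6, 2 higher and 4 lower, against 59.4% of all tested genes, 29.7% higher and 29.7% lower. VQ-D2 passed in 4, 2 in each direction, against 57.5% (29.6% higher, 27.8% lower). VQ-D4 passed in 6, 3 in each direction, against 54.3% (27.5% higher, 26.9% lower). VQ-D5 passed in 4, 2 in each direction, against 63.8% (31.2% higher, 32.5% lower). t-VK12653 passed in 6, 4 higher and 2 lower, against 56.9% (28.8% higher, 28.1% lower). Myc was among the higher genes and Mlx among the lower ones in each line. These 5 comparisons share the same 3 Control libraries. With lines summed, VQ against Control passed in 3 of 9 members, with Myc and Mxi1 higher and Mlx lower, against 23% of all tested genes, 13.7% higher and 9.27% lower.

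In that summed comparison Mxi1 was 0.73 ± 0.17 (SE, adjusted p = 0.0216) and Mlx -0.72 ± 0.21 (SE, adjusted p = 0.0476). Without Control replicate 1, 2 or 3 in turn, Mxi1 was 0.68 (adjusted p = 0.0972), 0.67 (adjusted p = 0.108) and 0.82 (adjusted p = 0.0655), and Mlx -0.76 (adjusted p = 0.121), -0.90 (adjusted p = 0.0653) and -0.51 (adjusted p = 0.203), so that Myc alone passed each time. Mlx was also lost without VQ-D5 replicate 4, at -0.71 (adjusted p = 0.0548), without VQ-D1, VQ-D2 or VQ-D4 as a line, and from bone marrow alone. Mxi1 was also lost without VQ-D5 as a line, at 0.64 (adjusted p = 0.0537). The members that did not pass were Max at -0.02 with a 95% interval of -0.48 to 0.45, Mxd1, Mxd3 at 0.44, Mxd4 at -0.45, Mnt at 0.67 and Mga at 0.29.

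Between the genotypes with and without the Nras allele, the members leaned one way. In VQ against t-VK12653, 6 of 9 members were lower and none of the other 3 passed, where 31.6% of all tested genes were lower and 61.2% passed in either direction. Mxi1 was -0.45 ± 0.09 (SE, adjusted p = 0.000142), Mxd4 -0.67 ± 0.19 (SE, adjusted p = 0.00595), Mnt -1.02 ± 0.13 (SE, adjusted p = 6.69e-07) and Mga -0.89 ± 0.06 (SE, adjusted p = 1.07e-10) on the log2 scale, beside the values of Myc and Mxd1 given above. Max was 0.15 with a 95% interval of -0.08 to 0.37, and Mxd3 0.15 with -0.41 to 0.71. These 6 calls kept their side of the threshold in each alternative that was run. The mean hides differences between donors: VQ-D2 was -0.33 from t-VK12653 in Mga, while VQ-D4 was -1.21, and VQ-D5 was -1.44 in Mnt, while VQ-D4 was -0.37. With 1 donor without the Nras allele, genotype and donor cannot be told apart.

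Levels of different genes were compared per length, from the deposited TPM. In the tumour lines Myc was the most abundant member, at 603 ± 74.0 TPM in VQ-D1 and 5378 ± 577 TPM in t-VK12653, against 43.6 ± 14.7 TPM in Control. In Control the most abundant was Mxd4 at 243 ± 49.1 TPM, above Mxd1 at 94.2 ± 46.0, Mlx at 78.7 ± 17.2 and Max at 59.0 ± 11.1 TPM. The share of Myc in the summed TPM of the 10 members was 59.1 ± 1.95% in VQ-D1 and 88.3 ± 2.24% in VQ-D2, with 74.9 ± 2.88% in VQ-D4 and 70.4 ± 3.24% in VQ-D5, and 90.6 ± 0.718% in t-VK12653. In Control it was 6.78 ± 2.21%.

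The ratio of Myc to Max TPM was 12.9 ± 1.20 in VQ-D1 and 52.3 ± 5.62 in VQ-D2, with 28.8 ± 1.43 in VQ-D4 and 23.9 ± 4.26 in VQ-D5. It was 144 ± 22.0 in t-VK12653, against 0.727 ± 0.131 in Control, so Myc RNA was below Max RNA in Control alone. The summed TPM of the repressors, Mxd1, Mxi1, Mxd3, Mxd4, Mnt and Mga, moved far less than Myc. It was 330.4 ± 15.8 in VQ-D1 and 387 ± 95.7 in VQ-D2, with 322 ± 34.3 in VQ-D4 and 372 ± 27.4 in VQ-D5, and 482 ± 63.1 in t-VK12653, against 461 ± 6.96 in Control. The repressor sum per Myc TPM was 0.552 ± 0.04 in VQ-D1 and 0.101 ± 0.0274 in VQ-D2, with 0.272 ± 0.0525 in VQ-D4 and 0.338 ± 0.0513 in VQ-D5, and 0.0897 ± 0.00803 in t-VK12653. In Control it was 11.5 ± 4.07. Mxd4 was the largest part of the repressor sum in every group, at 243 ± 49.1 TPM in Control, 190 ± 89.1 in VQ-D2 and 205 ± 39.5 in VQ-D5. The highest VQ-D2 library held 322 TPM of Mxd4, so the spread of the sum in that line was mostly that of Mxd4. Within the sum the makeup shifted, since Mxd1 contributed 17.0 ± 0.271 TPM in VQ-D5 and 76.0 ± 21.7 TPM in t-VK12653, against 94.2 ± 46.0 TPM in Control. These are ratios of RNA, and protein was not measured here. The shares and ratios that use Myc carry the limit given above, that the handling of transgene reads in the Myc count was not stated.

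**Figure D3:**
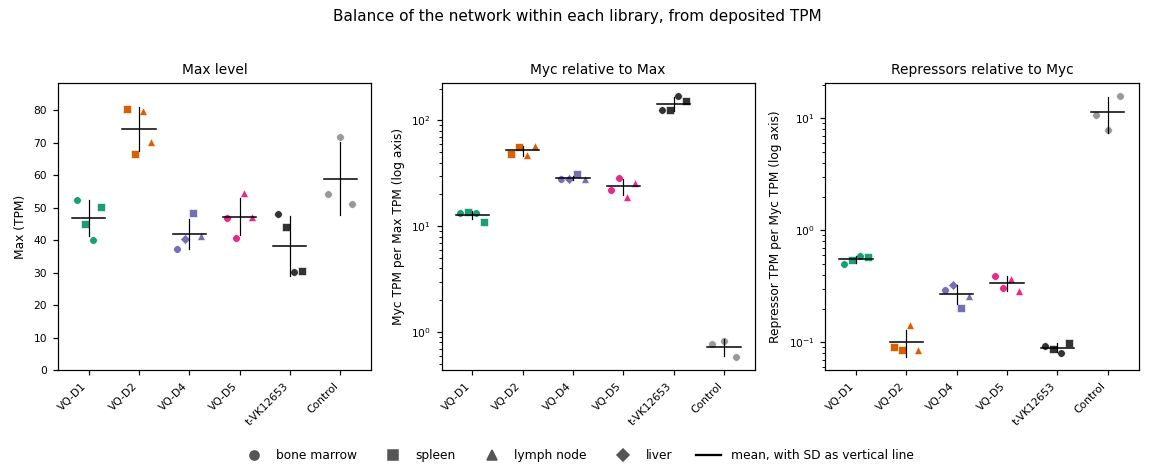
Deposited TPM in every library, by group: Max level (linear axis from 0), Myc per Max (log axis) and the sum of Mxd1, Mxi1, Mxd3, Mxd4, Mnt and Mga per Myc (log axis); horizontal bars are means and vertical lines SD. Max stays between 30.2 and 80.4 TPM in every library, whereas Myc per Max averages 12.9 to 144 in the 5 lines and 0.727 in Control.

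Between organs of the same line no member passed the test. The fits used here had no term for the recipient mouse. Spread between recipients therefore counted as error, which limits how small an organ difference could be seen. In spleen against bone marrow and in lymph node against bone marrow, both fitted within lines, 0 of 9 members passed by edgeR or by DESeq2, where 0% and 0.0155% of all tested genes passed by edgeR. At an unadjusted p under 0.05 there was 1 member, Mga, for spleen and 0 for lymph node. Myc was 0.06 in spleen with a 95% interval of -0.15 to 0.28 and -0.02 in lymph node with -0.27 to 0.23. Mga was -0.14 in spleen (adjusted p = 0.726). The spleen difference was also compared between VQ-D1 and t-VK12653 as an interaction, and again 0 of 9 members passed by either tool, against 0% of all genes, with 1 member, Mxi1, at an unadjusted p under 0.05. The Mxi1 interaction was -0.49 ± 0.20 (SE, adjusted p = 1).

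Genes that MYC is known to activate were mostly higher in the tumours, but not in the order of their Myc RNA. Of 24 classical MYC-activated genes, 20 were higher and 1 lower than in Control in VQ-D1, with a median log2 fold change of 1.40. In VQ-D2 21 were higher and 1 lower, median 1.81, and in VQ-D4 20 and 2, median 1.30. In VQ-D5 21 were higher and 1 lower, median 1.91, and in t-VK12653 19 and 2, median 0.80. Over all tested genes the medians of these comparisons lay between -0.04 and 0.02. The shares of all tested genes were 27.5% to 31.2% higher and 26.9% to 32.5% lower. The line with the most Myc RNA had the smallest of the 5 medians. Named after their values were seen, the lower genes were Odc1, the ornithine decarboxylase gene, in VQ-D2, VQ-D4 and t-VK12653, Tert, the telomerase gene, in VQ-D1, VQ-D4 and t-VK12653, and Ccnd2 in VQ-D5. Odc1 was uneven in Control, at 293, 115 and 128 CPM. In t-VK12653 replicate 3 it was at 146 CPM, above Control replicates 2 and 3. Without Control replicate 2, which was highest in neutrophil markers, a check added after the data were seen, 18 to 21 genes were higher in each line, and 3 were lower in VQ-D1 in place of 1 and 3 in VQ-D4 in place of 2.

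Directly compared, 17 of the 24 were higher and 1 lower in VQ than in t-VK12653, with a median of 0.83 against 0.02 over all genes, although Myc itself was lower. 29.6% of all tested genes were higher. Srm, which encodes spermidine synthase, was at 161, 196, 155 and 177 CPM in VQ-D1, 382, 440.3, 451 and 509.5 in VQ-D5 and 84.1, 86.8, 82.7 and 96.1 in t-VK12653, against 51.4, 47.9 and 44.1 CPM in Control. Its log2 difference was 1.45 ± 0.07 (SE, adjusted p = 3.58e-13) in VQ against t-VK12653. Gnl3, encoding the nucleolar GTPase nucleostemin, differed by 1.53 ± 0.08 (SE, adjusted p = 8.35e-13), Nop58 of the small nucleolar RNA machinery by 1.39 ± 0.09 (SE, adjusted p = 1.85e-11) and Tfrc, the transferrin receptor, by 1.47 ± 0.25 (SE, adjusted p = 6.67e-05). Fbl, encoding the nucleolar methyltransferase fibrillarin, was at 17.0 ± 3.66 CPM in t-VK12653 and 5.21 ± 0.71 CPM in Control, a difference of 1.66 ± 0.26 (SE, adjusted p = 1.31e-05), and Hspe1, a mitochondrial chaperonin, differed by 1.46 ± 0.14 (SE, adjusted p = 1.72e-08).

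With lines summed, 19 of the 24 were higher than in Control and none lower, with a median of 1.77 against 0.19 over all genes and 13.7% of all genes higher. Without Control replicate 2 it was 14 of 24, again with none lower. Npm1, the nucleolar chaperone nucleophosmin, rose by 2.65 ± 0.40 (SE, adjusted p = 0.00622), Srm by 2.61 ± 0.40 (SE, adjusted p = 0.00655), Nop58 by 2.52 ± 0.27 (SE, adjusted p = 0.00323) and Rcc1, the exchange factor for Ran, by 2.52 ± 0.52 (SE, adjusted p = 0.0156). Ncl, nucleolin, averaged 2288 ± 306 CPM in VQ-D1, 4846 ± 248 in VQ-D5 and 2371 ± 409 in t-VK12653, against 776 ± 26.0 CPM in Control. Ccnd2, the cyclin D2 gene, split the lines, at 2238 ± 426 CPM in VQ-D1 and 341 ± 57.2 in VQ-D2, with 2439 ± 288 in VQ-D4 and 91.5 ± 69.0 in VQ-D5, and 1462 ± 379 in t-VK12653, against 461 ± 518 in Control. The summed level of 26 proliferation genes was 3875, 5739.8, 5258 and 5193 CPM in VQ-D1, 7309, 6919, 6880.3 and 7264 in VQ-D5 and 3390.2, 3323, 3964 and 3674 in t-VK12653, against 1547, 2834 and 1576 CPM in Control. In VQ-D2 the sum was 6689, 5719, 5210 and 5217 CPM. In VQ-D4 it was 2275, 2454, 3498 and 3168 CPM, which overlapped Control. The part of proliferation in the MYC-activated genes was not tested.

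**Figure D4:**
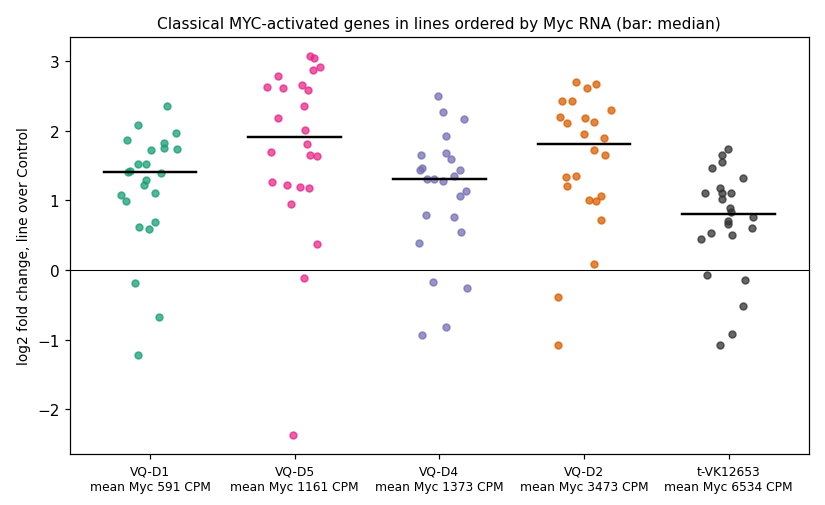
Log2 fold change over Control of each of 24 classical MYC-activated genes (points) in the 5 lines, ordered from left to right by mean Myc level; the bar is the median of the list and the horizontal line is 0. The medians are 1.40 in VQ-D1, 1.91 in VQ-D5, 1.30 in VQ-D4, 1.81 in VQ-D2 and 0.80 in t-VK12653, so they do not follow the order of Myc.

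Of 8 classical MYC-repressed genes, 1 was higher and 5 lower than in Control in VQ-D1, where 29.7% of all tested genes were higher and 29.7% lower. In VQ-D2, 0 were higher and 5 lower, against 29.6% and 27.8% of all genes. VQ-D4 had 2 higher and 3 lower, against 27.5% and 26.9%, and VQ-D5 1 and 5, against 31.2% and 32.5%. In t-VK12653 3 were higher and 2 lower, against 28.8% and 28.1%, and with the VQ lines summed none of the 8 passed in either direction. The cell-cycle inhibitor gene Cdkn1b averaged 47.2 to 70.3 CPM in the 4 VQ lines and was at 144, 159, 134 and 160.2 CPM in t-VK12653, against 84.4, 106 and 117 CPM in Control, a log2 difference of -1.36 ± 0.08 (SE, adjusted p = 5.15e-12) between VQ and t-VK12653. Cdkn1a, a further inhibitor of the same family, was at 60.3 ± 8.52 CPM in VQ-D1, 2.56 ± 2.05 in VQ-D2 and 18.4 ± 2.48 in t-VK12653, against 3.71 ± 2.12 CPM in Control. It rose in t-VK12653 by 2.33 ± 0.49 (SE, adjusted p = 0.000453). Gadd45a, a stress-induced growth arrest gene, had 0, 2, 0 and 2 reads in the t-VK12653 libraries, against 33, 90 and 35 reads in Control. Pooled over libraries, the t-VK12653 level of Gadd45a was 0.0150 times the Control level, with an exact 95% interval of 0.00405 to 0.0393 for counting error. VQ-D2 and VQ-D5 were low as well, at 0.339 ± 0.116 and 0.614 ± 0.568 CPM, while VQ-D1 was at 6.91 ± 1.54 and VQ-D4 at 35.3 ± 16.2 CPM, against 16.8 ± 11.9 CPM in Control. Cdkn2b, the inhibitor p15, had no reads in any library of VQ-D2 or VQ-D5. VQ-D1 libraries held 1, 0, 10 and 4 reads and VQ-D4 libraries 3, 4, 9 and 7. It had 42, 40, 32 and 22 reads in t-VK12653 and 15, 11 and 20 in Control, so t-VK12653 held the most.

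Of 17 genes of the SIN3 and related corepressor complexes, through which MXD proteins and MNT act, 1 was higher and 4 lower in VQ than in Control with lines summed, median 0.03, and 1 was higher and 9 lower in t-VK12653, median -0.47. Over all tested genes 13.7% were higher and 9.27% lower in VQ, median 0.19, and 28.8% were higher and 28.1% lower in t-VK12653, median 0.01. Rbbp7, a histone-binding subunit shared with other complexes, was 1.0 ± 0.29 (SE, adjusted p = 0.0463) in VQ against Control. Hdac1, the deacetylase of the SIN3 complex, was -0.75 ± 0.24 (SE, adjusted p = 0.0115) in t-VK12653, and its subunit gene Arid4a was -1.05 ± 0.25 (SE, adjusted p = 0.0238) in VQ.

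Of 11 PRC1.6 genes, whose proteins join MGA in a repressor complex, 2 were higher and none lower in VQ with lines summed, and 2 were higher and 2 lower in t-VK12653. Of all tested genes, 13.7% were higher and 9.27% lower in VQ, and 28.8% and 28.1% in t-VK12653. The median log2 fold change of the 11 was 0.90 in VQ and 0.04 in t-VK12653, against 0.19 and 0.01 over all genes. Pcgf6, the subunit that defines the complex, averaged 22.6 ± 3.29 CPM in VQ-D1, 24.9 ± 1.53 in VQ-D2 and 17.1 ± 3.35 in t-VK12653, against 11 ± 1.88 CPM in Control. It rose by 1.17 ± 0.24 (SE, adjusted p = 0.0148) in VQ and by 0.57 ± 0.21 (SE, adjusted p = 0.0248) in t-VK12653. Tfdp1, the dimer partner of E2F6, was at 115, 115, 102 and 105 CPM in VQ-D2 and 146, 145, 141 and 141 in VQ-D5, but at 25.4, 21.5, 32.1 and 36.7 CPM in VQ-D4 and 15.7, 17.3, 17.3 and 14.5 in t-VK12653, against 20.4, 40.4 and 27.5 CPM in Control. Wdr5 was 1.05 ± 0.27 (SE, adjusted p = 0.0295) in VQ against Control.

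Of 16 MYC cofactor genes, 4 were higher and none lower in VQ with lines summed, and 4 were higher and 5 lower in t-VK12653. Their medians were 0.31 in VQ and 0.05 in t-VK12653. The shares to set beside them are 13.7% of all tested genes higher and 9.27% lower in VQ, and 28.8% higher and 28.1% lower in t-VK12653, with medians over all genes of 0.19 and 0.01. Kat2a, encoding the acetyltransferase GCN5, rose by 1.73 ± 0.32 (SE, adjusted p = 0.0112) in VQ and by 0.70 ± 0.15 (SE, adjusted p = 0.000315) in t-VK12653. The ATPase genes Ruvbl1 and Ruvbl2 rose in VQ, Ruvbl1 by 1.37 ± 0.41 (SE, adjusted p = 0.0472) and Ruvbl2 by 1.46 ± 0.34 (SE, adjusted p = 0.0224). Of 21 genes that set the life span of MYC protein, 3 were higher and none lower in VQ, and 3 were higher and 7 lower in t-VK12653 beside the same shares of all genes. Their medians were 0.20 in VQ and 0.02 in t-VK12653.

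Fbxw7, the ubiquitin ligase subunit that marks MYC for destruction, was at 134, 131, 119 and 119.7 CPM in VQ-D1, 85.5, 67.1, 80.0 and 63.9 in VQ-D4 and 116, 109, 123 and 117 in t-VK12653. It was at 278, 219, 268 and 203 CPM in VQ-D2 and 299.8, 252, 275 and 238 in VQ-D5, against 292, 231 and 307 CPM in Control. Fbxw7 fell in t-VK12653, with a log2 difference from Control of -1.23 ± 0.13 (SE, adjusted p = 3.91e-08). The kinase genes Pim1 and Pim2, whose products stabilise MYC, were -1.70 ± 0.18 (SE, adjusted p = 2.15e-07) and -1.59 ± 0.21 (SE, adjusted p = 1.25e-06) in VQ against t-VK12653. Skp2 and Aurka, encoding a ubiquitin ligase subunit and a kinase that act on MYC, were higher in VQ than in t-VK12653, by 1.27 ± 0.20 (SE, adjusted p = 1.26e-05) and 1.29 ± 0.23 (SE, adjusted p = 5.67e-05). VQ-D1 went against the VQ mean in both kinase genes. Pim1 was at 371, 399, 321 and 326 CPM in VQ-D1, against 269, 333, 156 and 205 CPM in t-VK12653, and Pim2 at 102, 122, 80.6 and 98.3 CPM in VQ-D1, against 32.8, 41.9, 18.0 and 44.4 CPM in t-VK12653.

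The genes whose levels ran most like each member over the 23 libraries were ranked by the Pearson correlation of log2 CPM among 8427 genes, as a description, since libraries of a line share their donor. Myc was closest to Ipo7, an importin gene (r = 0.971), then Fdx1l and Ptprs. Mxd1 was closest to Ptpn22, a lymphoid phosphatase gene (r = 0.932), Mnt to Cul7 (r = 0.929), Mga to Sema3a (r = 0.914) and Mxi1 to Rbm42 (r = 0.884). Mxd4 was closest to Edem3 (r = 0.864), Mlx to Gpcpd1 (r = 0.839) and Max to Galnt11 (r = 0.817). Among the members themselves, Myc correlated with Mga at 0.63, Mxi1 at 0.61, Mnt at 0.54 and Mlx at -0.58, and with Max at -0.06.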

How the data were processed

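RNA-seq gene tables of 23 libraries were used, each with read counts, FPKM and TPM per gene. RNA was purified with RNeasy Micro columns and libraries with the stranded SMARTer total RNA kit for picogram inputs, per the labels' protocols. The submitters' processing notes list STAR, featureCounts, DESeq2 and the build GRCm38/mm10; versions, annotation and strand setting were not given in the sources used here. Each count column holds raw whole-number counts as deposited by the authors. The FPKM and TPM columns were also computed by the authors, and TPM served for comparisons between genes. FPKM gives the same shares within a library by construction.

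Counts were filtered with filterByExpr (count minimum 10, total minimum 15), scaled by TMM and tested with edgeR 4.0.16 (robust quasi-likelihood, R 4.3.3, limma 3.58.1), with Benjamini-Hochberg adjustment over all tested genes and a threshold of 0.05. The fit had group and organ as terms, none for the recipient, and 12867 genes. Its liver term rests on VQ-D4 replicate 2 alone, so that library adds nothing to VQ-D4's tested differences. VQ-D2 has no bone marrow library and Control no other organ. Differences of VQ-D2 from Control thus rest on organ terms estimated with other lines and taken as shared by all lines. VQ against Control was tested on counts summed per VQ line, 4 lines against 3 libraries and 13870 genes, since libraries of a line share a donor. A standard error is the log2 fold change divided by the root of F, and 95% intervals use 1.96 standard errors. Intervals on pooled reads cover counting error only. Scripts were tested on simulated data. No pair of libraries in a group agreed within sampling noise.

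Samples were grouped by GEO's labels. The members, gene lists and tests were chosen with earlier results of these data known. All 10 members are named; from each other list, the genes named are among the 4 with the largest log2 fold change past the threshold in VQ or t-VK12653 against Control or in VQ against t-VK12653, besides marker genes given by level. Alternatives were DESeq2 1.42.0, RLE scaling, no filter, recipients summed, bone marrow alone, abundant non-coding RNA removed, a replicate block and leaving out each library or line. Promoter sequences are RefSeq's on GRCm38.p6; Myc and the other 9 members were matched by symbol, and a window was given for 9. Values of some genes are not reported here.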

Additional observations from a re-analysis of the deposited data

Results flagged for a closer look

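In 3 of 47 groups screened, the highest library lay apart from the others by more than Dixon's 95% limit, which chance passes in about 5% of groups. Myc was at 1677 CPM in VQ-D4 replicate 3, from spleen, where the nearest library of that line was at 1309 CPM, and the value rests on 5174 reads. Mycn was at 0.349 CPM in VQ-D5 replicate 4, from 3 reads, while the other libraries of that line had none. Mycn was at 0.215 CPM in t-VK12653 replicate 1, from 1 read, and again the other libraries of that line had none. With the other 3 libraries at 0, any single read passes the limit, so both Mycn values stand out by construction.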

How the results depend on the processing

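No value that passed in its main or its alternative setting changed sign; 139 member values that passed in neither did, among them Max in VQ against Control, Mxd1 in t-VK12653 against Control and Mxd4 in VQ-D2 against VQ-D4. Of the values for single genes under the alternatives, 5017 kept their side of the threshold, 105 lost a call and 62 gained one. The number of members that passed in VQ against Control was 3, and 5 when the mean of the 4 lines was taken in the fit of libraries; it ran from 1 to 4 with a library left out, 1 without each Control library. The count over all genes in that comparison was 3192, against 2027 with bone marrow alone and 7786 with the mean of lines, and 1148 to 3285 with a library left out. For spleen against bone marrow it was 0, against 41 with DESeq2, 218 with no filter and 24 with the replicate block, and 0 to 22 with a library left out. For lymph node against bone marrow it was 2, against 40 with DESeq2, 264 with no filter and 5 with the replicate block, and 0 to 7 with a library left out. For the spleen interaction it was 0, against 4 with DESeq2 and 82 with no filter, and 0 to 1 with a library left out. The causes were not tested.

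The replicate numbers did not pair the samples: over 55 pairs with the same number the median correlation of deviations was 0.018, from -0.222 to 0.142, and 7 of 23 libraries correlated best with their own number. With the number as a block, 39 of 90 pair tests of members passed in place of 45, 7 members passed in VQ-D4 in place of 6 and 5 in VQ-D5 in place of 4. Max lost its 4 pair calls: VQ-D1 against VQ-D2 (adjusted p = 0.0846), and VQ-D2 against VQ-D4 (0.0678), VQ-D5 (0.0803) and t-VK12653 (0.0687). The Myc share of summed TPM is the same from FPKM by construction. With 0 to 3 reads a library, Mycn could not be tested, and Mxd3 was limited by depth.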
